A study of Mus musculus with 6 samples.

Results

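Cells that receive a RAS signal also make the proteins that shut it off, and 10 genes of this feedback were followed in mouse stomach corpus. They comprise the ERK phosphatase genes Dusp4, Dusp5 and Dusp6, the Sprouty genes Spry1, Spry2 and Spry4, the Spred genes Spred1 and Spred2, and the ERK-responsive genes Phlda1 and Ier3. They were taken by gene symbol from an expression table of 18988 rows, all 10 were present, and all 10 were among the 11857 genes that passed the filter on low values. The corpus is the main body of the stomach, whose glands make acid and pepsinogen. One group of mice, called control here, had the genotype Ras;APC FF (3 mice, replicates 1 to 3). The other, called PGC here, had the genotype PGC;Ras;APC FF (3 mice, replicates 4 to 6), so that both groups carried Ras and APC FF and differed by PGC. All were on a C57BL/6 background, and each library came from 1 mouse. What PGC and FF stand for is not spelled out in the labels, which give no promoter, induction scheme, age or time point, which limits what the groups can stand for as a model. The study's title concerns gastric cancer induced by successive oncogenic activation, and the comparison asks what differs in the corpus when PGC is added.

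In the RAS-ERK cascade a growth factor receptor activates RAS, RAS activates RAF, RAF activates MEK, and MEK phosphorylates the kinases ERK1 and ERK2. ERK in turn acts on transcription factors of the ETS and AP-1 families, and some of the genes they switch on encode brakes on the cascade. DUSP proteins remove phosphate from ERK itself, Sprouty proteins act between the receptor and RAF, and Spred proteins bring the RAS-inactivating protein neurofibromin to the membrane. Because the transcripts of several such genes follow ERK activity, they are widely read as reporters of how strongly the pathway is signalling. ERK activity itself was not measured in these RNA data.

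All values are FPKM, fragments per kilobase of gene scaled to library size, as the authors deposited them, so levels of different genes can be set side by side. Differences between groups are given on the log2(FPKM + 1) scale with the standard error (SE) from limma and a Benjamini-Hochberg adjusted p-value that takes in every tested gene, and a gene was called at an adjusted p under 0.05. Between 11465 and 12407 genes reached 1 FPKM per library, summed FPKM ranged from 664821 to 804774, and the number of reads is unknown. Replicate 6 stood apart: Pgc, Clps and Pla2g1b, all digestive genes, held 6.36% of its summed FPKM, against 31.7% to 48.1% in the other 5 libraries. Defining corpus genes were present in every library, with the proton pump gene Atp4a at 427.7 FPKM in replicate 6 and at 1768 to 2884 FPKM elsewhere. The Y-linked gene Eif2s3y was at 13.15 FPKM in control replicate 3 and at 0 in the others, so that sex was not balanced between the groups. In such whole-tissue RNA a change in the number of cells that express a gene cannot be told apart from a change in its RNA per cell.

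Promoter sequences show how the brakes differ in the sites near their starts. The 3 shown are Dusp5, which alone of those searched held a CArG box, and Dusp6 and Spred1, which held the ETS core. Of the 10 genes 7 had an entry among RefSeq promoters (GRCm38.p6, the assembly of mm10), and the 250 bases before each start were searched on both strands. Dusp4, Spry4 and Phlda1, which were among the genes with the largest changes, had no entry and were not searched. The motifs were the CArG box of serum response factor, the ETS core CGGAAG, the AP-1 site TGACTCA, the cAMP response element TGACGTCA and the GC box GGGCGG, none of which overlapped another in the 3 stretches shown. Each stretch is on the plus strand and stops before the GENCODE transcript. For Dusp5 that transcript begins upstream of the RefSeq start, so its window is shown only in part. The first lies at chr19:53528895-53529108 with CArG boxes in capitals, the second at chr10:99262981-99263230 and the third at chr2:117120821-117121070, both with the ETS core in capitals on either strand.
Dusp5: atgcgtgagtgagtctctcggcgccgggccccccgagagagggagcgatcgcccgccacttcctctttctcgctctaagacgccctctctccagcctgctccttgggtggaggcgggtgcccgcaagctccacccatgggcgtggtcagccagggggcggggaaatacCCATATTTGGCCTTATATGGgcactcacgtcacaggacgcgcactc
Dusp6: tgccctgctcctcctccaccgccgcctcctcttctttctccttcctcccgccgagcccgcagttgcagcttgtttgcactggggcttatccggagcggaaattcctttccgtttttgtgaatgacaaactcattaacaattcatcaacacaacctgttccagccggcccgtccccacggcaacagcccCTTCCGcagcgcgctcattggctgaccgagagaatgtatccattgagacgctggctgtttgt
Spred1: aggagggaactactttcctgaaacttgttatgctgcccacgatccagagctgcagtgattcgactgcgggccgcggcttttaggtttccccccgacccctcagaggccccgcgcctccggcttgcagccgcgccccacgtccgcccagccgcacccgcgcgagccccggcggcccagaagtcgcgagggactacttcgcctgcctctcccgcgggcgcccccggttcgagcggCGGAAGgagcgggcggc

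Dusp5 held 2 adjoining CArG boxes, 82 and 72 bases before its RefSeq start, and no other of the 7 promoters held one. Among all 32851 promoter windows 1.467% held a CArG box. The ETS core was found in 3 of the 7 (Dusp6, Spred1 and Spred2), against 13.59% of all windows, and the GC box in 5, against 32.74%. The AP-1 site and the cAMP response element were found in 0 of the 7, with 4.463% and 1.546% of all windows holding them. A match is a string of letters and was not tested for binding.

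Levels in control corpus spanned from 1.44 ± 0.10 FPKM for Spry4 to 50.9 ± 9.03 FPKM for Phlda1 (SD, n = 3 for all means given). Dusp6 and Ier3 followed Phlda1 at 14.2 ± 2.32 and 13.5 ± 2.56 FPKM, and their control values overlapped. Dusp5 (7.21 ± 1.81), Spry2 (6.03 ± 0.463) and Spry1 (5.48 ± 0.161) overlapped as neighbours too. Spred2 (4.72 ± 0.657), Spred1 (3.69 ± 0.127), Dusp4 (2.93 ± 0.423) and Spry4 came next in that order, with no overlap between neighbours.

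In PGC corpus 9 of the 10 genes had a positive log2 change and Dusp5 did not, while 80.6% of all tested genes were positive. For 8 of the 10 every PGC library lay above every control library. Of all tested genes 42.7% met that description, so it is common in this comparison. The median log2 change of the 10 was 0.57, against 0.26 over all tested genes. By limma with 6 libraries 0 of the 10 passed the adjusted threshold, where 0.11% of all genes passed as higher, and 7 of the 10 had an unadjusted p under 0.05 with a positive change, where 31.8% of all genes did. Whole-library scaling moved these changes: after median-of-ratios scaling the median of all genes went from 0.26 to -0.0034, the median of the 10 was 0.31, and 9 of 10 were still positive, against 49.6% of all genes.

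**Figure D1:**
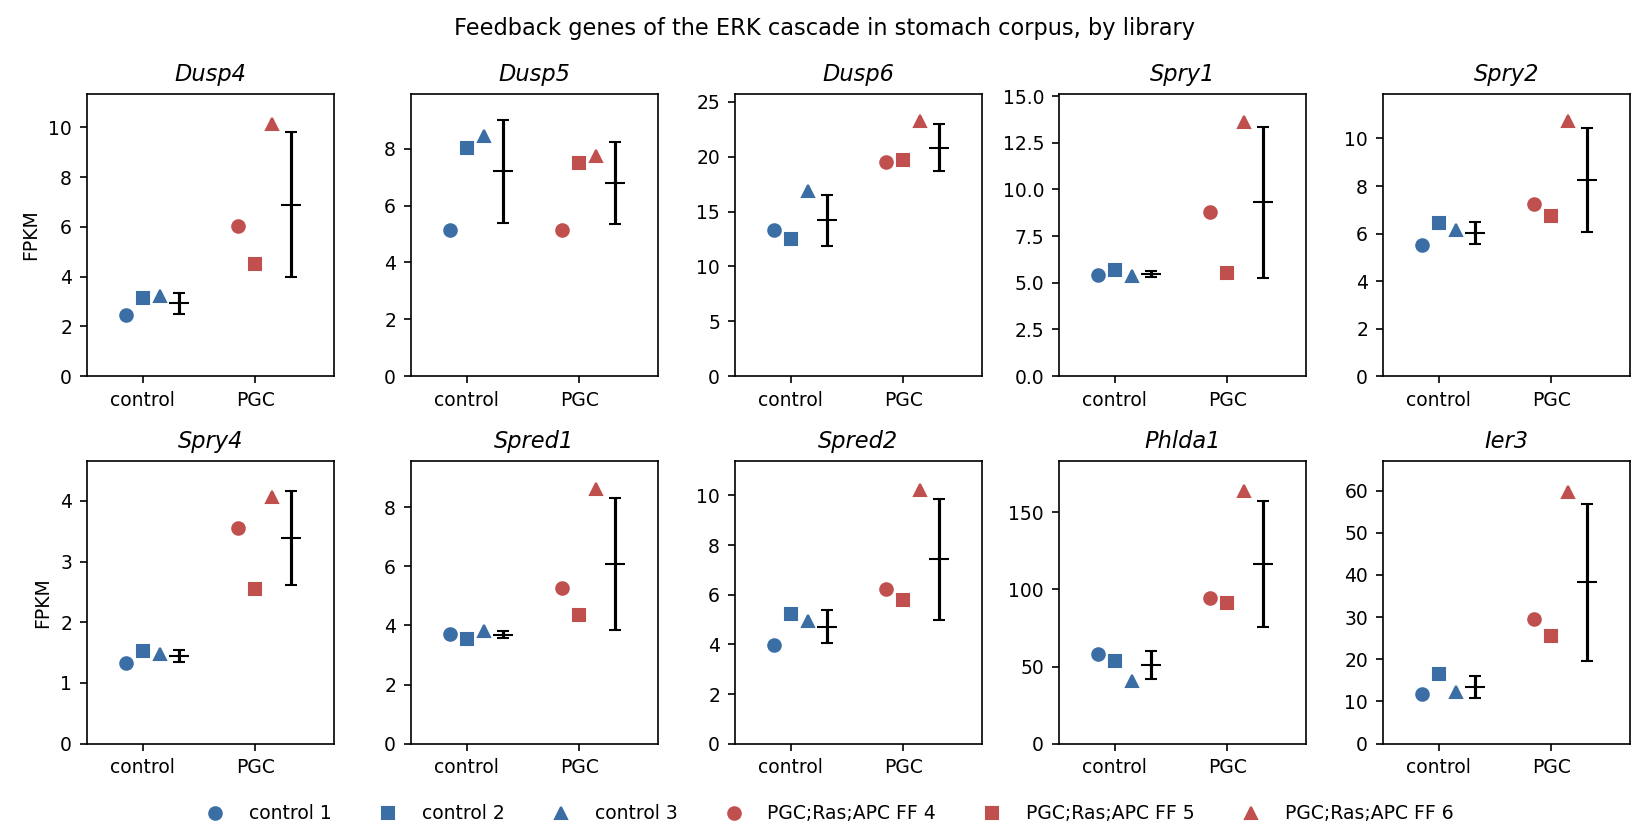
FPKM of each gene (vertical axis, from 0) in the 3 control and 3 PGC libraries, 1 symbol per library, with the group mean and SD in black. Replicate 6 is the highest library in 9 of the 10 panels, and only the Dusp5 and Spry1 panels have overlapping groups.

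Of the 10 genes 4 passed once replicate 6 was left out, namely Phlda1, Ier3, Dusp4 and Spry4. That fit, over the same 11857 genes, called 8.11% of all genes higher and 0.961% lower. The same 4 genes passed when replicate 5 was left out instead, a fit that called 3.54% of its 11654 genes higher. With all 6 libraries these 4 had the lowest adjusted p of the set, 0.085 each by limma. Genes outside the set, such as Pcna and Acta2, had that value too, and Dusp6 was at 0.0892 by limma, so the value does not single these 4 out. Leaving out replicate 1, 2, 3 or 4 gave 0 calls among the 10, as did the fit with all 6 libraries. Over all genes the number called higher fell from 13 with all 6 libraries to between 0 and 2 in those fits.

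Among the phosphatases, Dusp4, which acts on ERK in the nucleus, differed most. It was at 2.44, 3.13 and 3.21 FPKM in control replicates 1 to 3 and at 6.05, 4.51 and 10.14 FPKM in PGC replicates 4 to 6. The groups did not overlap, and the mean was 2.36-fold that of controls. Its log2 change was 0.95 ± 0.25 (SE), with a limma adjusted p of 0.085. Without replicate 6 the change was 0.67 ± 0.15 (limma adjusted p = 0.0405). Only 4.13% of tested genes had a larger change with 6 libraries.

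Dusp6, the cytoplasmic ERK phosphatase, was the most abundant of the 3. It was at 13.32, 12.50 and 16.86 FPKM in control mice and at 19.51, 19.72 and 23.29 FPKM in PGC. The groups did not overlap, and the 3 PGC mice were closer to one another than for most other genes of the set. The log2 change was 0.53 ± 0.15 (limma adjusted p = 0.0892), and 0.23 after median-of-ratios scaling. Without replicate 6 it was 0.45 (limma adjusted p = 0.0786).

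Dusp5, a second nuclear ERK phosphatase, behaved otherwise. It was at 5.14, 8.03 and 8.46 FPKM in control mice and at 5.15, 7.51 and 7.73 FPKM in PGC. The 2 groups overlapped almost wholly, with the lowest value of each near 5.1 FPKM. Its log2 change was -0.066 (95% interval -0.57 to 0.43, limma adjusted p = 0.826). The estimate for Dusp4, 0.95, lay outside that interval, but the interval for Dusp4, 0.37 to 1.54, overlapped it. The difference between Dusp4 and Dusp5 was not tested. The direction of the small Dusp5 change was not stable, as it turned positive without replicate 2, 3 or 4. After median-of-ratios scaling the change was -0.34 (limma adjusted p = 0.302). Among the promoters searched, its own was the only one with CArG boxes, and any link of these to its level was not tested. Dusp5 shares 547 exonic bases with an antisense gene, and the counting is not stated to use strand, so reads of the pair cannot be told apart.

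Ratios within a library do not depend on how libraries are scaled, and 6 ratios of related genes were compared. The pairs were chosen after the values were seen, so their p-values are descriptive and give no support for a difference. Dusp5/Dusp6 was 0.386, 0.642 and 0.502 in controls and 0.264, 0.381 and 0.332 in PGC. Every PGC ratio lay below every control ratio, by a narrow margin between replicates 1 and 5. The exact permutation test, two-sided, gave p = 0.1, the smallest it can give with 3 against 3, and 0.3 adjusted over the 6 ratios. Dusp4/Dusp6 was 0.208 ± 0.0369 in controls and 0.325 ± 0.104 in PGC (SD, n = 3), with overlap (exact permutation p = 0.2, adjusted 0.4).

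The Sprouty genes encode inhibitors that growth factors induce. Spry4, the least abundant, was at 1.33, 1.52 and 1.48 FPKM in control mice and at 3.56, 2.54 and 4.07 FPKM in PGC. The groups were well apart and the mean was 2.35-fold that of controls. Its log2 change was 0.83 ± 0.16 (limma adjusted p = 0.085). Without replicate 6 the change was 0.72 ± 0.14 (limma adjusted p = 0.0316).

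Spry2, the most abundant Sprouty in controls, was at 5.53, 6.44 and 6.13 FPKM in control mice and at 7.23, 6.73 and 10.75 FPKM in PGC. The groups did not overlap, but replicate 5 was close to control replicate 2. The log2 change was 0.37 ± 0.18 (limma adjusted p = 0.174), and 35.9% of tested genes had a larger one. Without replicate 6 it was 0.18 (limma adjusted p = 0.279). After median-of-ratios scaling it was 0.096.

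Spry1 was nearly constant in controls, at 5.41, 5.66 and 5.36 FPKM, and spread widely in PGC, at 8.81, 5.55 and 13.60 FPKM. Replicate 5 lay inside the control range while replicates 4 and 6 lay above it. The log2 change was 0.60 ± 0.27 (limma adjusted p = 0.149), and 0.31 without replicate 6 (limma adjusted p = 0.247). Spry1 shares 710 exonic bases with a gene on the opposite strand, so its reads carry the same doubt as those of Dusp5.

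Spry4/Spry2 was 0.241, 0.236 and 0.241 in the 3 controls and 0.492, 0.377 and 0.379 in PGC. This ratio had the tightest controls of the 6 and a log2 difference of 0.79. The exact permutation test gave p = 0.1, its smallest value, and 0.3 adjusted. This pair joins the Sprouty genes with the largest and the smallest change and was chosen after these were seen, so the p-value gives no support. Spry1/Spry2 was 0.911 ± 0.0587 in controls and 1.10 ± 0.242 in PGC (SD, n = 3), with overlapping groups (exact permutation p = 0.4, adjusted 0.48).

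**Figure D2:**
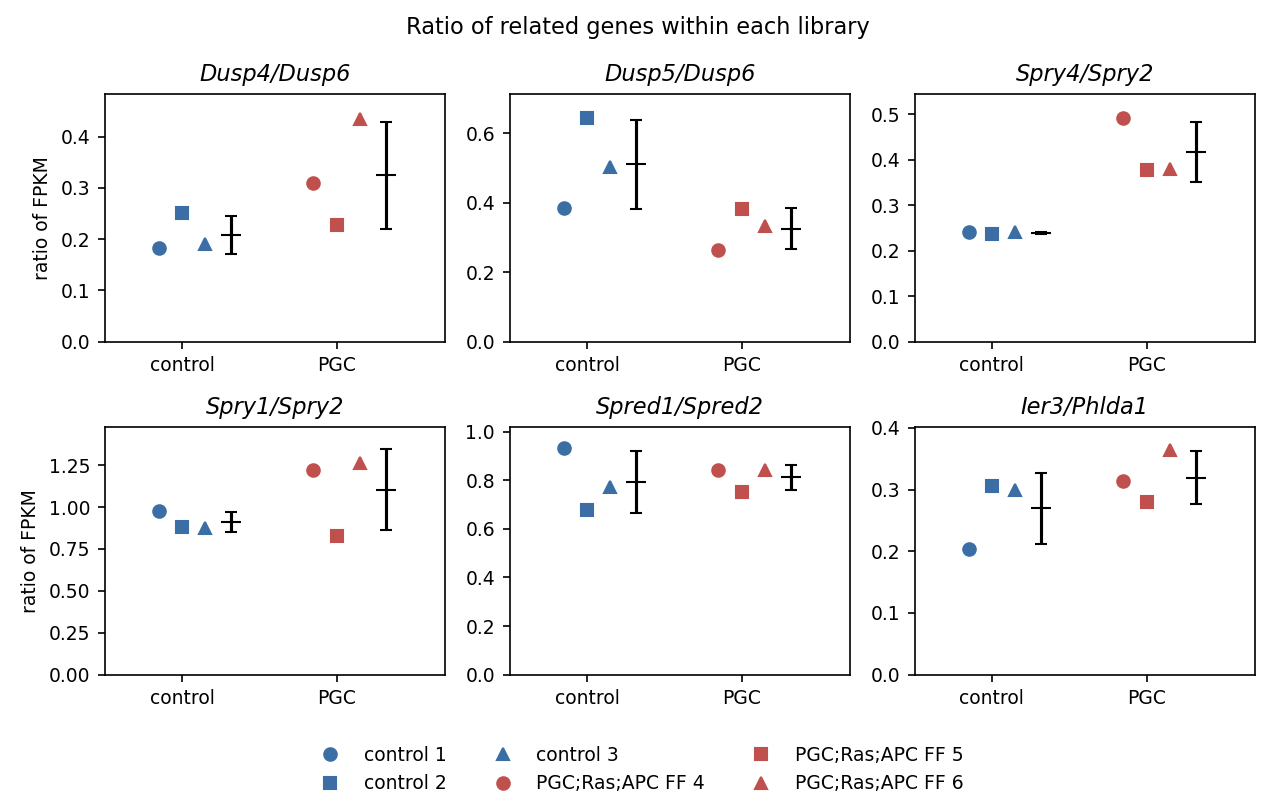
Ratio of the FPKM of 2 related genes in each library (vertical axis, from 0), with group mean and SD in black. Spry4/Spry2 lies at 0.236 to 0.241 in controls and at 0.377 to 0.492 in PGC, and Dusp5/Dusp6 lies lower in each PGC library than in each control.

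The Spred genes encode membrane-bound brakes on RAS, and their values were alike. Spred1 was at 3.71, 3.55 and 3.80 FPKM in control mice and at 5.26, 4.36 and 8.60 FPKM in PGC. Spred2 was at 3.98, 5.24 and 4.93 FPKM in control mice and at 6.25, 5.80 and 10.23 FPKM in PGC. Neither gene's groups overlapped, and replicate 6 was far above replicates 4 and 5 in both. The log2 change was 0.55 ± 0.21 for Spred1 (limma adjusted p = 0.121) and 0.53 ± 0.21 for Spred2 (limma adjusted p = 0.124). Without replicate 6 these were 0.31 and 0.30. Spred1/Spred2 was 0.793 ± 0.129 in controls and 0.811 ± 0.0516 in PGC (SD, n = 3), a log2 difference of 0.043 (exact permutation p = 0.8, adjusted 0.8).

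Phlda1, a pleckstrin homology-like domain protein gene that ERK signalling induces, was the most abundant of the set. It was at 58.17, 53.74 and 40.79 FPKM in control mice and at 94.17, 91.18 and 163.56 FPKM in PGC. Replicates 4 and 5 were close to each other and well above all controls. The log2 change was 1.14 ± 0.25 (limma adjusted p = 0.085), and 0.87 ± 0.16 without replicate 6 (limma adjusted p = 0.031). Phlda1 shares 727 exonic bases with a non-coding gene on the opposite strand.

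Ier3, an immediate early gene whose product is tied to ERK and cell survival, had the largest change of the 10. It was at 11.84, 16.45 and 12.21 FPKM in control mice and at 29.58, 25.55 and 59.61 FPKM in PGC. The groups were well apart, replicate 6 was far above replicates 4 and 5, and the mean was 2.83-fold that of controls. The log2 change was 1.35 ± 0.30 (limma adjusted p = 0.085), and 0.99 ± 0.16 without replicate 6 (limma adjusted p = 0.0262). Of all tested genes 1.73% had a larger change. Ier3/Phlda1 was 0.270 ± 0.0574 and 0.320 ± 0.0424 (SD, n = 3), with overlap (exact permutation p = 0.4, adjusted 0.48).

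**Figure D3:**
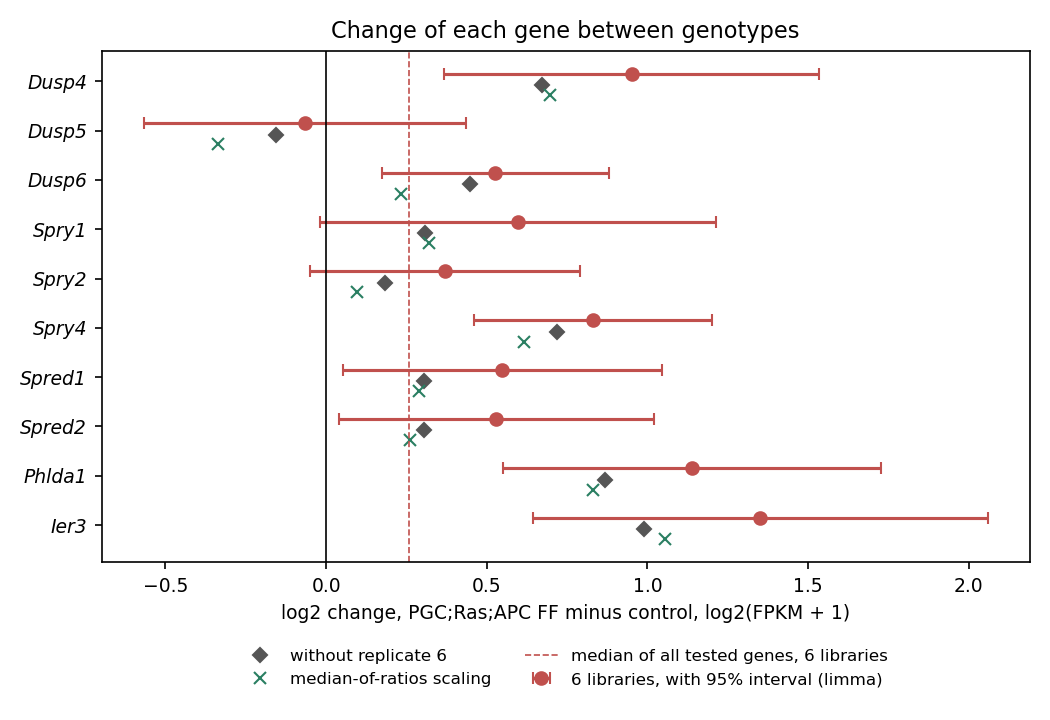
Log2 change of each gene, PGC minus control, with the 95% interval from limma (circles), without replicate 6 (diamonds) and after median-of-ratios scaling (crosses). The dashed line is the median of all tested genes, 0.26, and Ier3, Phlda1, Dusp4 and Spry4 are the 4 genes farthest right in all 3 settings.

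The PGC mice differed among themselves. Replicate 6 was the highest of the 3 for 10 of the 10 genes, and replicate 5 the lowest for 8. The median FPKM of all tested genes had the same order, at 7.94, 7.67 and 10 in replicates 4, 5 and 6, so this order is not particular to the set. The median level of the 10 above the control mean was 0.52, 0.36 and 1.04 (log2) in replicates 4, 5 and 6. Epithelial marker genes stood higher in the same libraries: the median of 6 markers was 0.58, 0.72 and 1.17 above the control mean, and their summed FPKM was 4483 to 6747 in PGC against 2720 to 3175 in controls, with 6 of 6 markers apart. Smooth muscle markers went the other way, with a summed FPKM of 860 to 1269 against 1897 to 3438 and 6 of 6 markers below every control. Neither epithelium nor stroma moved as a whole. Fibroblast markers summed to 248 to 384 FPKM against 236 to 246, with 3 of 5 above every control. Parietal cell markers summed to 1724 to 8667 FPKM against 7794 to 9685, with 0 of 5 positive in log2 change. Over all tested genes 42.7% had every PGC library above every control, and 5.47% had every one below. Markers of proliferating cells summed to 114 to 186 FPKM against 69.8 to 83.7, with 6 of 7 apart. Leukocyte markers summed to 53.0 to 184 FPKM against 43.5 to 92.0, so that the sums overlapped, while 2 of the 5 tested were apart. Mucous neck cell markers summed to 4472 to 12668 FPKM against 2402 to 3560, with 3 of 3 apart. Chief cell markers summed to 16112 to 87535 FPKM against 140368 to 194262, a sum made up almost wholly of Pgc. Of the 3 tested, Pgc lay below every control in each PGC library. Pga5 lay above every control (35.4 ± 4.78 and 58.6 ± 11.4 FPKM, SD, n = 3), and Bhlha15 overlapped. Adipocyte markers summed to 22.2 to 60.5 FPKM against 77.0 to 111.0, and Adipoq (limma adjusted p = 0.0103) and Cfd (limma adjusted p = 0.00908) fell. The part of such shifts in tissue make-up in these results was not tested.

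Set against the epithelial markers, 2 of the 10 genes were higher in every PGC library. The log2 FPKM of each gene minus the mean log2 FPKM of the 6 markers, with the control mean at 0, was above all controls in every PGC library for Spry4 and Ier3, as for 1.93% of all tested genes. Spry4 was at 0.78, 0.12 and 0.26 and Ier3 at 0.62, 0.24 and 0.92 in replicates 4 to 6. The highest control was at 0.065 for Spry4 (replicate 3) and at 0.20 for Ier3 (replicate 2), so replicate 5 cleared the controls narrowly in both. The same measure was below all controls for 2 genes, Dusp5 (-0.98, -0.60 and -1.10) and Spry2 (-0.26, -0.53 and -0.40). Of all tested genes 64.8% were below in this way, so that nothing is read from these 2. For the other 6 the groups overlapped. Phlda1 (0.33 ± 0.16, SD, n = 3) and Dusp4 (0.35 ± 0.35) were positive in the mean, and Dusp6, Spry1, Spred1 and Spred2 negative.

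**Figure D4:**
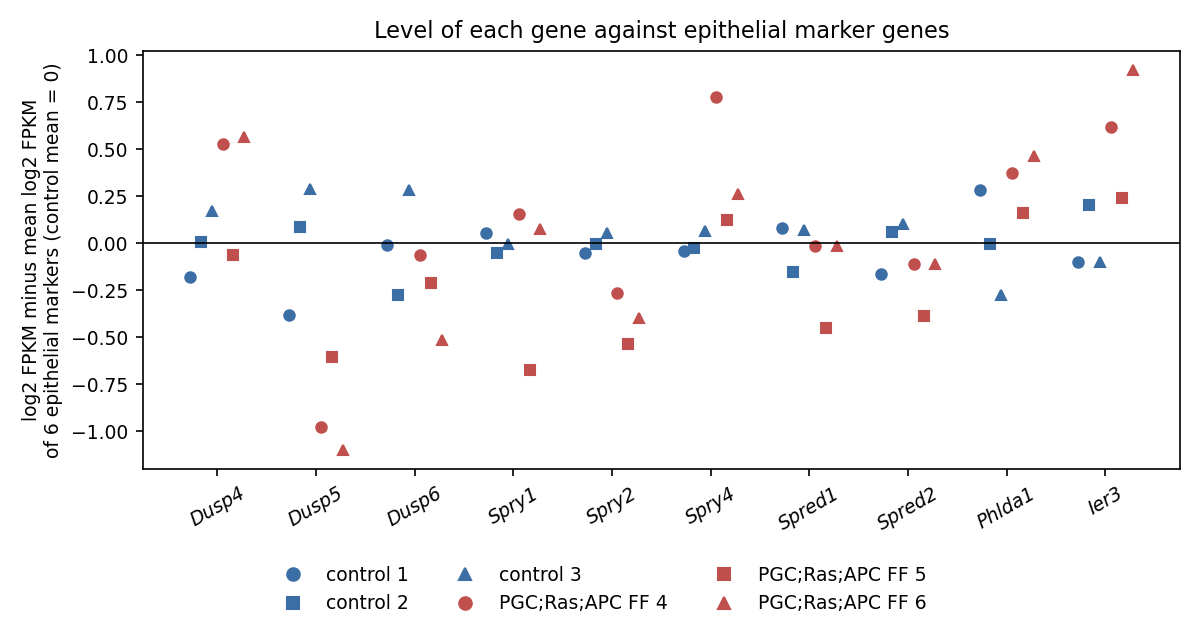
Log2 FPKM of each gene minus the mean log2 FPKM of 6 epithelial marker genes (vertical axis), set to 0 at the control mean, 1 symbol per library. Spry4 and Ier3 lie above every control in each PGC library, and Dusp5 and Spry2 below.

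Other dual specificity phosphatase genes had mixed directions. Of 10 listed, 8 were tested, and 0 passed in either direction by limma with adjustment, against 0.11% of all genes higher and 0.0422% lower. Their median log2 change was 0.090, and for 3 of 8 every PGC library lay above every control, near the 42.7% of all tested genes. Dusp1, an immediate early phosphatase with JNK and p38 among its substrates, was at 10.7 ± 3.65 and 10.3 ± 3.50 FPKM in control and PGC (SD, n = 3). Dusp3 was at 9.05 ± 1.45 and 7.22 ± 0.637 FPKM, with every PGC library below every control, as for 5.47% of all tested genes. Dusp14 was at 4.90 ± 0.164 and 5.05 ± 0.701 FPKM.

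Other negative regulators of RAS-ERK act on receptors, RAS or RAF. Of 15 listed, 10 were tested, 0 passed, 1 had an unadjusted p under 0.05 as higher (31.8% of all genes did), and the median log2 change was 0.18. After median-of-ratios scaling 3 of 10 were positive. Pebp1, which encodes an inhibitor of signalling to MEK, was at 113 ± 6.02 and 148 ± 14.7 FPKM. Lrig1, which dampens EGF receptor signalling, was at 14.28 to 16.30 FPKM in control mice and at 14.11 to 19.82 FPKM in PGC, and Dab2ip, a RAS GTPase-activating protein gene, at 12.6 ± 0.400 and 17.6 ± 5.95 FPKM.

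The kinases and adaptors of the cascade carry the signal itself. Of 18 listed, 17 were tested, 0 passed, 5 had an unadjusted p under 0.05 as higher and 0 as lower. Of all genes 31.8% were higher and 3.63% lower by that rule, so the count of higher genes was near the background. Their median log2 change was 0.22, below the median of all tested genes. Mapk3, which encodes ERK1, was at 153 ± 11.1 and 246 ± 59.0 FPKM. Map2k2, which encodes MEK2, was at 47.3 ± 6.10 and 62.2 ± 12.1 FPKM (SD, n = 3 each).

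Further ERK output genes had the highest median of the pathway lists, at 0.84 over 13 tested of 16 listed. Of the 13, 11 were positive. With 6 libraries 0 passed and 8 had an unadjusted p under 0.05 as higher, against 31.8% of all genes. Without replicate 6, 4 of 13 passed as higher, against 8.11% of all genes. Ccnd1, which encodes the G1 cyclin D1, was at 12.6 ± 2.23 and 37.4 ± 21.2 FPKM, Ets2 at 16.4 ± 1.33 and 32.1 ± 16.0, and Emp1 at 29.4 ± 3.46 and 35.4 ± 13.0 (SD, n = 3). Etv5 and Etv4, ETS factors that respond to ERK, were chosen after their values were seen. Etv5 was at 2.82, 1.91 and 2.60 FPKM in control mice and at 18.25, 7.06 and 42.30 FPKM in PGC, with replicate 6 highest and replicate 5 lowest of the 3, the order found for most of the feedback genes. Etv4 was at 1.31 ± 0.468 and 7.21 ± 5.43 FPKM. Their relative Etv1 had a log2 change of -0.20, from 1.82 ± 0.202 to 1.45 ± 0.301 FPKM, and Vgf one of -0.32, from 1.46 ± 0.538 to 0.960 ± 0.375 FPKM, both with overlapping groups.

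Immediate early genes answer acute stimuli. Of 15 immediate early genes, 12 were tested, 0 passed, 3 had an unadjusted p under 0.05 as higher, and every PGC library lay above every control for 2 of 12. Both counts were below the shares of all genes, 31.8% and 42.7%. The median log2 change was 0.34, and 0.049 after median-of-ratios scaling. Junb was at 65.8 ± 8.37 and 108 ± 39.6 FPKM, Jund at 86.3 ± 23.3 and 107 ± 31.1, and Klf4 at 144 ± 25.9 and 144 ± 23.7. Of 13 such genes with a promoter entry, 2 (Egr2 and Zfp36) held a CArG box in the 250-base window. Among 10 NF-kB target genes, listed because Ier3 also answers NF-kB, 8 were tested and 0 passed, with a median of 0.55. Nfkbia was at 26.4 ± 0.247 and 33.9 ± 13.3 FPKM, Nfkb2 at 10.4 ± 0.676 and 15.3 ± 4.06, and Relb at 4.98 ± 0.780 and 8.53 ± 3.95.

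The further Phlda and Ier genes, of which the latter share with Ier3 the name of immediate early response gene, were 5, all tested, with 0 past the threshold and a median log2 change of 0.66. Without replicate 6, 2 of the 5 passed, against 8.11% of all genes. Ier2 was at 25.5 ± 3.34 and 41.9 ± 13.2 FPKM, Ier5 at 6.61 ± 2.32 and 9.41 ± 2.88, and Phlda3 at 5.13 ± 0.365 and 8.64 ± 5.10. The 2 that passed were Phlda2 and Ier5l, named after their values were seen, at 2.20 ± 0.474 and 7.37 ± 4.02 FPKM and at 3.15 ± 0.426 and 10.3 ± 6.42 FPKM.

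**Figure D5:**
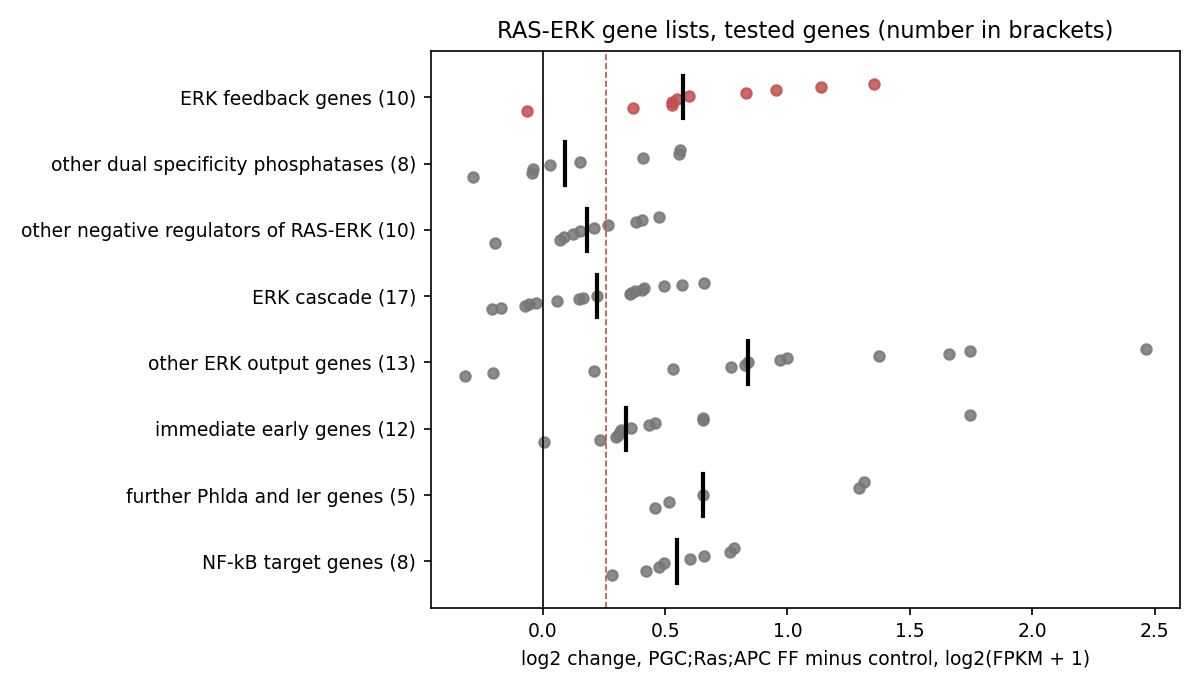
Log2 change of every tested gene of each list (1 point per gene, horizontal axis), with the list median as a black bar and the median of all tested genes, 0.26, as a dashed line. The medians of the ERK feedback genes (0.57) and other ERK output genes (0.84) lie right of that line. So do those of the further Phlda and Ier genes (0.66), NF-kB target genes (0.55) and immediate early genes (0.34). The other phosphatases (0.090), other negative regulators (0.18) and cascade genes (0.22) lie left of it.

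The genes whose profile was most like that of the set were found by the root mean square difference between centred log2(FPKM + 1) profiles over the 6 libraries, among 7480 other tested genes with a mean of at least 5 FPKM. They were Gfer (0.028), Sec61a1 (0.030), Hmgn1 (0.035), Hat1 (0.035) and Snrnp40 (0.042). Sec61a1, which encodes the channel subunit of the endoplasmic reticulum translocon, was at 49.5 ± 1.08 FPKM in control mice and at 84.1 ± 21.8 FPKM in PGC mice. Hat1, a histone acetyltransferase gene, was at 6.94 ± 0.307 and 12.2 ± 3.42 FPKM. Each of the 5 was highest in replicate 6 and lower in replicate 5 than in replicate 4. That order follows from their choice by profile and is no separate result.

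By GENCODE M21 (GRCm38) all 10 genes are protein-coding. On the plus strand lie Dusp4 (chromosome 8, 34807297 to 34819894), Dusp5 (chromosome 19, 53529109 to 53542431), Dusp6 (chromosome 10, 99263231 to 99267489), Spry1 (chromosome 3, 37639947 to 37644598) and Spred1 (chromosome 2, 117121374 to 117182279). Spred2 (chromosome 11, 19924375 to 20024026), Phlda1 (chromosome 10, 111506286 to 111508645) and Ier3 (chromosome 17, 35821684 to 35822923) are on the plus strand as well. Spry2 (chromosome 14, 105891947 to 105896819) and Spry4 (chromosome 18, 38586247 to 38601415) are on the minus strand.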

How the data were processed

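Corpus RNA of 3 control mice and 3 PGC mice was sequenced at BGI, per the labels' protocols. The deposited FPKM were computed by the authors and are given to 2 decimals. STAR, featureCounts and mm10 are named in the submitters' processing notes. No source used here gives versions, annotation, strandedness or how reads became FPKM. The 10 genes and all lists were chosen with earlier results of these data known.

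FPKM are not counts, so the test was limma (version 3.58.1, R 4.3.3) on log2(FPKM + 1), two-sided, with genotype as the 1 term and an eBayes trend, over genes that reached 1 FPKM in 3 or more of the 6 libraries. Benjamini-Hochberg adjustment took in every tested gene. Fold changes on this scale understate those of low genes. The fit had 4 residual degrees of freedom (7.72 after the prior was added). The test was also run on simulated data in which both groups had the same spread and no library stood apart. The real groups differed (median SD 0.134 in control and 0.223 in PGC), so that run does not show how the test behaves here. Ratios within libraries were chosen after the values were seen and compared by an exact permutation test. Named genes were all 10, those of each pathway list past the threshold or, where fewer than 2 passed, its 3 of highest mean FPKM, and 5 genes of most similar profile. Of these, 1 gene of the cascade list is not reported here. Promoter motifs were searched in RefSeq sequences with Python 3.11.15. Read depth is unknown, so no counting interval is given. Alternatives changed the pseudocount, filter, scaling, prior, library weights and libraries included.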

Additional observations from a re-analysis of the deposited data

How the results depend on the processing

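The 10 genes kept a positive median in all 16 alternatives, from 0.26 with a total that left out the 50 most abundant genes to 0.81 without replicate 5. Dusp5 alone changed sign: its log2 change was 0.015, 0.049 and 0.096 without replicates 2, 3 and 4, and ranged from -0.26 (without replicate 1) to 0.096 when 1 library was left out. None of the other 9 genes was negative in any alternative that tested it. Calls among the 10 numbered 0 to 4 when 1 library was left out, and 4 without replicate 6 over the genes of the 6-library filter. With estimated library weights 6 passed (Dusp4, Dusp6, Spry4, Spred1, Phlda1 and Ier3), where replicate 6 had a weight of 0.126 and 26.6% of all genes were called higher. Over all genes 13 were higher and 5 lower. Leaving out 1 library gave 0 to 832 higher and 0 to 106 lower, with 962 and 114 without replicate 6 over the 6-library filter and 3152 and 336 with library weights. A pseudocount of 0.1 gave 29 higher, no filter 3 higher, and a mean of at least 5 FPKM 7 higher and 2 lower. Scaling by median of ratios gave 9 higher and 10 lower, quantile normalization 10 and 13, and a total without the 50 most abundant genes 12 and 10, so that the share of calls on the higher side went from 72.2% to 47.4%, 43.5% and 54.5%. The causes of these moves were not tested. A mean of at least 5 FPKM left 7 of the 10 genes. No paired analysis was possible because the groups share no replicate numbers. Precision is limited by 3 mice per group and by unknown depth.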

Other observations

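Several genes of the same pathway were below the filter and entered no test. Fosl1, an AP-1 subunit gene that ERK induces, was at 0.31, 0.32 and 0.29 FPKM in the control mice, against 0.96, 1.89 and 3.20 FPKM in PGC. Ereg, which encodes the EGF receptor ligand epiregulin, was at 0.37, 0.29 and 0.39 FPKM and at 0.57, 0.92 and 3.90 FPKM. For both genes every PGC library was above every control library, as for 42.7% of all tested genes. Il17rd, a feedback gene of FGF signalling, was at 0.53, 0.73 and 0.58 FPKM and at 1.03, 0.51 and 1.47 FPKM, with replicate 5 just below the lowest control. Spred3 was at 0.16 to 0.30 FPKM in all libraries but replicate 6, where it was at 1.08 FPKM, and Spry3 was at 0.24 to 0.37 FPKM in all 6. These genes were chosen after their values were seen.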
